A study of Mus musculus with 6 samples.

Results

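Cathepsins are proteases of the lysosome and endosome, and the 9 genes Ctsa, Ctsb, Ctsc, Ctsd, Ctsh, Ctsk, Ctsl, Ctss and Ctsz were followed here in macrophages that had been given cartilage fragments. The members were chosen by symbol, and all 9 were found among 24394 gene symbols, of which 23 are cathepsin genes. The mice were C57BL/6 at postnatal day 28, and bone marrow monocytes from them were grown for 7 days in 50 ng/ml macrophage colony-stimulating factor. Cartilage fragments were then added to the 3 stimulated cultures, at 5 per macrophage and for 24 h, and none were added to the 3 control cultures. The fragments came from crushed femoral head cartilage of the same mice. RNA was sequenced as paired-end reads of 100 bp. The labels name no transgene or deletion in either group, and nothing in the labels says that the cultures came from separate animals, so the p-values measure the spread between these cultures only.

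Most cathepsins are made as inactive precursors, tagged with mannose 6-phosphate, carried to the lysosome and cut to their active form at low pH. They then break down phagocytosed and endocytosed protein. In macrophages they also trim proteins for presentation on MHC class II and can be released to act on matrix. Ctsb, Ctsc, Ctsh, Ctsk, Ctsl, Ctss and Ctsz are cysteine proteases, Ctsd is an aspartic protease and Ctsa is a serine carboxypeptidase.

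The libraries held an estimated 699000 to 776000 fragments each, from the coverage and FPKM listed. This is far below the number of reads that the methods of the study name, for a reason not known here, and every counting error below rests on it. The files list FPKM per transcript, that is, fragments scaled to transcript length and to the size of the library. All 10 macrophage markers were above 0 in at least 1 library, with a summed level of 29499 to 39226 FPKM in controls and 30061 to 40255 FPKM in stimulated libraries, of which Lyz2 alone made up 26780 to 37370 FPKM. Of the 10, 9 had a positive log2 fold change on FPKM. There 0 passed the test of limma (adjusted p), against 0.184% of all genes tested, and 4 had an unadjusted p under 0.05, against 6.52%. In fragments summed over each locus, a scale described with the levels of Ctsd, 4 of the 10 passed, against 2.29% of all genes. All 4 were higher with cartilage fragments (1.53% of all genes), namely Adgre1, Cd14, Cx3cr1 and Itgam. Adgre1, which encodes F4/80, was at 326 to 373 FPKM in controls and 387 to 566 FPKM in stimulated libraries. Summed osteoclast markers, a list that holds Ctsk itself, were at 345 to 360 FPKM in controls and 307 to 324 FPKM in stimulated libraries, with Calcr at 0. Atp6v0d2 made up most of this sum, at 274 to 290 FPKM in controls and 210 to 223 FPKM in stimulated libraries. Acp5 (26.0 to 27.1 against 41.6 to 55.1 FPKM), Mmp9 (6.13 to 15.1 against 21.7 to 30.6) and Nfatc1 (5.00 to 7.10 against 7.42 to 8.84) were higher without overlap, where 8.73% of all genes were. Atp6v0d2 was lower without overlap, where 6.13% of all genes were. Of 6 tested genes of the list, 3 had a positive and 3 a negative log2 fold change on FPKM. Of 14 chondrocyte markers, 8 were at 0 in all libraries, the collagen genes Col9a1, Col9a2 and Col9a3 among them, and the summed level was 2.40 to 5.21 FPKM in controls and 1.44 to 3.35 FPKM with cartilage fragments. Summed fibroblast markers were at 201 to 218 FPKM in controls and 126 to 147 FPKM in stimulated libraries. Col1a1, Col1a2 and Postn of this list were lower by the test in locus fragments, where 0.76% of all genes were. The part of these marker differences in the results below was not tested. Xist was at 19.8 to 23.6 FPKM in all 6 libraries and Ddx3y, Eif2s3y, Kdm5d and Uty were at 0 in all 6, whereas the methods of the study name male mice.

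The promoter sequences of 7 of the 9 members were in the RefSeq table of GRCm38.p6, as windows of 250 bases before and 50 bases after a start. They are shown for the most abundant member (Ctsd), for a member whose level hardly differed between groups (Ctsa) and for the member with the largest difference (Ctsc), each as 120 bases of the window that hold a motif. Capitals mark the motif. The starts in the RefSeq table were 142387827 for Ctsd, 164833773 for Ctsa and 88278085 for Ctsc, and the printed stretches stop 29 bases before it in Ctsd, directly before it in Ctsa and 81 bases before it in Ctsc. The Ctsd transcript in the expression files starts further upstream than that, so 14 bases of the Ctsd stretch lie inside it, and the Ctsa stretch lies inside the span of the longer Ctsa transcript, NM_001038492. The motifs were chosen after the values were seen. TCACGTGA is the E-box type named CLEAR, the element that the lysosomal regulator TFEB is known to bind, and GAGGAAGT is a type bound by the myeloid factor PU.1, read on the opposite strand as ACTTCCTC.
Ctsd, chr7:142387857-142387976, minus strand: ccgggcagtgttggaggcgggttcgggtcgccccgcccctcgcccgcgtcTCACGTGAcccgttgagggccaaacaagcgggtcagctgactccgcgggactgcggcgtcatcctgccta
Ctsa, chr2:164833653-164833772, plus strand: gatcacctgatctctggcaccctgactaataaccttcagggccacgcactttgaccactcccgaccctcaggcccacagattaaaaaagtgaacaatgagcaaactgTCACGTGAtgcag
Ctsc, chr7:88277884-88278003, plus strand: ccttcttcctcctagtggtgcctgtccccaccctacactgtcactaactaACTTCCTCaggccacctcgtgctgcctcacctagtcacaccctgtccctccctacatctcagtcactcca

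TCACGTGA, which reads the same on both strands, occurred in the windows of Ctsa and Ctsd and in 0.974% of 32851 promoters of that length. Its inner part CACGTG, which overlaps it, occurred in Ctsa, Ctsd and Ctsl and in 7.15% of all promoters. GAGGAAGT occurred on either strand in Ctsc and Ctss and in 3.20% of all promoters. In Ctsd the motif began 99 bases before the start of the RefSeq table and in Ctsc 151 bases before it, while in Ctss it ran across the start. Ctsa held TCACGTGA at a pair of places, 13 bases before the start, as printed, and again from base 5 after it, outside the printed stretch. A match describes the letters only.

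Ctsd was the most abundant cathepsin and Ctsk the least, and these places held in every library. Mean levels over the 6 libraries, per length of transcript, ran in the order Ctsd (9376 FPKM), Ctss (3886), Ctsb (1554), Ctsz (1068), Ctsl (659), Ctsa (369), Ctsh (214), Ctsc (131) and Ctsk (18.4). Ctsd and Ctsk were 444-fold apart in controls and 590.3-fold apart with cartilage fragments. Both folds rest on 14 to 25 fragments of Ctsk per library and on the FPKM of the Ctsd symbol, which misses assembled transcripts. With those added, the Ctsd means were 13973 FPKM in controls and 12703 FPKM in stimulated libraries. The ranges of neighbours overlapped for Ctsb and Ctsz, where Ctsb was higher in 5 of 6 libraries, and for Ctsh and Ctsc, where Ctsh was higher in 4 of 6. All other neighbours in this order were apart in all 6 libraries. Ctsb fell below Ctsz in control 3, and Ctsh below Ctsc in control 3 and stimulated 1. Assembled transcripts held part of the reads there. With those added, Ctsb was at 1843 FPKM in control 3, against 1032 for Ctsz. Ctsh was then at 369 FPKM in control 3 and 347 in stimulated 1, against 105 and 161 for Ctsc. It was then above Ctsc in all 6 libraries. With its assembled pieces, Ctsz was above Ctsb in stimulated 1 (2542 against 1707) and stimulated 2 (2322 against 1659.7).

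**Figure D1:**
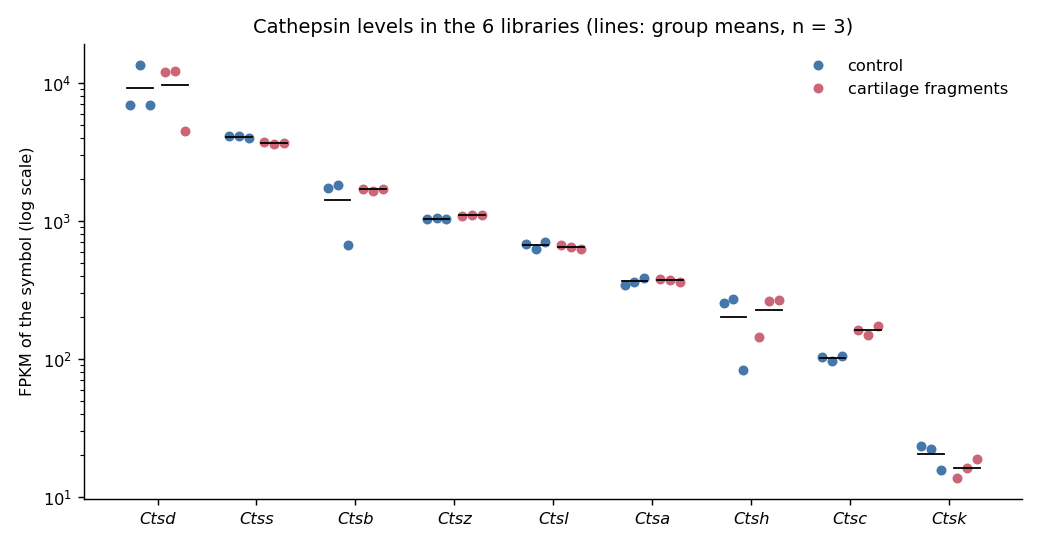
FPKM of each cathepsin (log axis) in the 3 control and 3 stimulated libraries, ordered by mean level, with lines at the group means. Ctsc is the member whose stimulated points all lie clearly above its control points (149 to 173 against 97.3 to 105 FPKM). Single points of Ctsb and Ctsh lie far below the rest of their group. For Ctsd the low points are 6906 and 6924 FPKM in controls, against 13594. In stimulated libraries its low point is 4518 FPKM, against 12052 and 12263.

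The levels of Ctsd, Ctsb and Ctsh moved with how a library's transcripts had been assembled. In some libraries the transcript assembler had built an unnamed transcript under the same gene ID, and part of the gene's reads then counted for that transcript and not for the symbol. This was the case for Ctsd in control 1, control 3 and stimulated 3, for Ctsb in control 3, and for Ctsh in control 3 and stimulated 1. Ctsz had a short assembled piece at its 3′ end in stimulated 1 and stimulated 2. Of 10352 genes tested, 3030 had such a transcript in 1 to 5 of the libraries. Values are therefore given first as the FPKM of the symbol and then as locus fragments, which are the estimated fragments of the symbol and of assembled transcripts with its gene ID, scaled to equal depth.

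**Figure D2:**
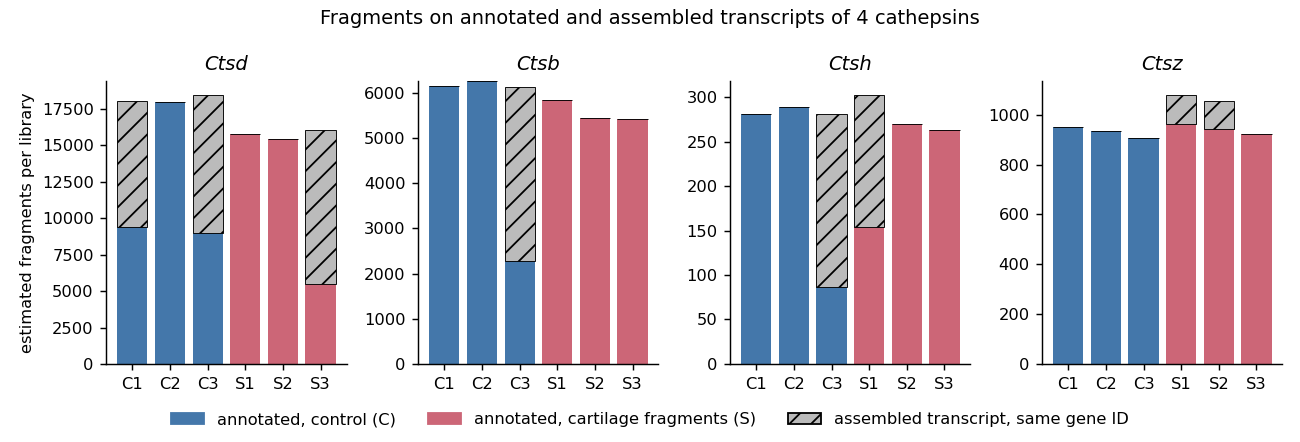
Estimated fragments per library, not scaled for depth, of Ctsd, Ctsb, Ctsh and Ctsz, with coloured bars for annotated transcripts and hatched bars for assembled transcripts of the same gene ID (C: control, S: stimulated). The hatched part of Ctsd holds 8672, 9520 and 10565 fragments in C1, C3 and S3. For Ctsd, Ctsb and Ctsh the full bars differ far less than the coloured ones. For Ctsz the reverse holds, since its hatched pieces (119 fragments in S1 and 112 in S2) widen the spread of the full bars.

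Ctsd, the aspartic endopeptidase of the lysosome (NM_009983, chr7:142375916-142387870 on mm10), was at 6906, 13594 and 6924 FPKM in controls and at 12052, 12263 and 4518 FPKM with cartilage fragments. The groups overlapped, and the low libraries were the 3 that had an assembled Ctsd transcript. The log2 fold change, stimulated minus control on the scale of log2(FPKM + 0.1), was 0.013 ± 0.49 (SE, n = 3 and 3), with an adjusted p of 0.998. In locus fragments, Ctsd was at 17399, 17741 and 18630 in controls and 15684, 15959 and 17205 in stimulated libraries. The groups did not overlap on this scale, with stimulated libraries lower, and the log2 fold change was -0.14 ± 0.05 (SE) with an adjusted p of 0.417. Without stimulated 3, the library with the largest assembled share of Ctsd (67.3% of its FPKM at the locus), the log2 fold change of locus fragments was -0.18 and the adjusted p was 0.00448. Of the 6 fits without a library, this 1 passed, and adjusted p ran up to 0.629.

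Ctss, a cysteine protease that stays active at neutral pH and trims the invariant chain of MHC class II (NM_021281 and NM_001267695, chr3:95526786-95556405), was at 4099, 4149 and 4022 FPKM in controls and 3769, 3588.5 and 3689 FPKM with cartilage fragments. All 3 stimulated libraries lay below all 3 controls. The log2 fold change was -0.15 ± 0.03 (SE), with an unadjusted p of 0.00222 and an adjusted p of 0.296, so Ctss did not pass the test on FPKM. In locus fragments it was at 3533, 3561 and 3452 against 3221, 3067 and 3168, and it fell by 0.16 on the log2 scale (95% interval -0.22 to -0.10, adjusted p 0.00114). Leaving out any 1 library kept this call, with adjusted p between 0.000565 and 0.0359. NM_001267695 was listed at 446 FPKM in stimulated 3 and at 0 in the other libraries, and it differs from NM_021281 by few bases of length (1360 against 1357), so the split between the pair is uncertain and the sum is used.

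Ctsb, which cuts both inside proteins and from their carboxyl end (NM_007798, chr14:63122462-63145923), was at 1744, 1823 and 675 FPKM in controls and 1707, 1659.7 and 1712 FPKM in stimulated libraries. The groups overlapped, and control 3, where an assembled transcript held 63.4% of the FPKM at the locus, stood apart. The log2 fold change was 0.39 ± 0.40 (SE, adjusted p 0.803), and without control 3 it was -0.075. In locus fragments Ctsb was at 5924, 6185 and 6171 in controls and 5785, 5624 and 5807 with cartilage fragments. The stimulated libraries were lower without overlap on that scale, with a difference of -5.82% of the control mean, a log2 fold change of -0.09 ± 0.02 (SE) and an adjusted p of 0.0504. It passed the test with size factors in place of equal depth (adjusted p 0.0348) and without control 1 (adjusted p 0.0420). The latter was the 1 of 6 fits without a library that passed, and adjusted p ran up to 0.349.

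Ctsz, a carboxypeptidase also called cathepsin X (NM_022325, chr2:174427494-174438992), was at 1029, 1044 and 1032 FPKM in controls and 1084, 1107 and 1115 FPKM in stimulated libraries. All stimulated libraries were above all controls, and the log2 fold change was 0.09 ± 0.03 (SE), with an unadjusted p of 0.0398 and an adjusted p of 0.724. Locus fragments were at 915, 924 and 914 in controls and 1073, 1092 and 987 in stimulated libraries. Ctsz rose by that count, with a log2 fold change of 0.19 ± 0.05 (SE) and an adjusted p of 0.0196. The call was lost without control 1, control 2, stimulated 1 or stimulated 2 (adjusted p 0.0935, 0.0811, 0.159 and 0.200). The assembled 3′ pieces of 323 and 343 bases added 119 fragments in stimulated 1 and 112 in stimulated 2. Because FPKM divides by length, these short pieces weigh far more on that scale. With their FPKM added, Ctsz was at 2542 and 2322 FPKM in stimulated 1 and stimulated 2 and at 1115 FPKM in stimulated 3, with a log2 fold change of 0.86 and an adjusted p of 0.551, and its mean share of the cathepsin FPKM was 4.63% in controls and 9.26% in stimulated libraries.

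Ctsl, a cysteine endopeptidase (NM_009984, chr13:64363214-64370306), was at 686, 624 and 703 FPKM in controls and 665, 651 and 625 FPKM with cartilage fragments. The groups overlapped, and the difference of -0.05 (log2, 95% interval -0.20 to 0.10, adjusted p 0.808) did not pass the test. Ctsa, the protective protein that stabilises the lysosomal enzymes Neu1 and Glb1 (NM_008906 and NM_001038492, chr2:164832872-164841032), was at 345, 364 and 389 FPKM in controls and 379.5, 372 and 363 FPKM in stimulated libraries. These overlapped too, with a log2 fold change of 0.02 and a 95% interval of -0.13 to 0.18 (adjusted p 0.926). An assembled transcript of another gene ID ran across the 3′ end of Ctsa in control 3, stimulated 1 and stimulated 3, at 262, 235 and 275 FPKM, and was not added. In stimulated 3 the transcript NM_001038492 was listed at 52.4 FPKM and at 0 elsewhere.

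Ctsh, an aminopeptidase (NM_007801, chr9:90054267-90076095), was at 256, 270.1 and 82.8 FPKM in controls and 145, 265 and 266 FPKM with cartilage fragments. The low values were those of control 3 and stimulated 1, where assembled transcripts held 77.6% and 58.2% of the FPKM at the locus. The log2 fold change was 0.28 ± 0.53 (SE, adjusted p 0.881). In locus fragments Ctsh was at 271, 286 and 283 against 301, 279 and 282, and the log2 fold change was 0.04 with a 95% interval of -0.12 to 0.19 (adjusted p 0.919). The libraries that had stood apart lay within or next to their group on that scale.

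Ctsc, the dipeptidyl peptidase that activates granule serine proteases (NM_009982, chr7:88278093-88310875), had the largest difference of the members whose groups did not overlap. It was at 103, 97.3 and 105 FPKM in controls and 161, 149 and 173 FPKM with cartilage fragments. The stimulated mean was 1.59 times the control mean, and the lowest stimulated library was well above the highest control. The log2 fold change was 0.66 ± 0.09 (SE, 95% interval 0.44 to 0.88), with an unadjusted p of 0.000357 and an adjusted p of 0.117, which did not pass 0.05. With assembled transcripts added to every gene's FPKM the values of Ctsc stayed as they were and its adjusted p was 0.0322. In stimulated 2, assembled pieces of 348 and 334 bases with another gene ID lay within the Ctsc locus, at 101 and 123 FPKM. They were not added. In locus fragments Ctsc was at 174, 165 and 178 against 272, 251 and 294, and it rose by 0.66 on the log2 scale (95% interval 0.48 to 0.84, adjusted p 1.63e-05). That call held without each library in turn (adjusted p 2.03e-05 to 0.000943). Ctsc is in the study's own list of changed genes, which was chosen on these libraries, so its place there is not independent evidence.

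Ctsk, the collagen-cutting protease of osteoclasts (NM_007802, chr3:95499210-95509387), was at 23.6, 22.4 and 15.8 FPKM in controls and 13.7, 16.3 and 18.9 FPKM in stimulated libraries. The groups overlapped, and the log2 fold change of -0.33 ± 0.23 (SE, adjusted p 0.797) did not pass the test. Between 14 and 25 fragments per library stood behind these values, so a counting error of 21.6% is expected in controls, where the observed spread (CV) was 20.4%. The 95% interval of the log2 fold change ran from -0.89 to 0.23. Ctsk lies next to Ctss on chromosome 3, with 17398 bases between their transcripts.

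Over the family, 0 of 9 members passed an adjusted p of 0.05 on the FPKM of the symbol (limma), where 0.184% of all 10352 genes tested passed. At an unadjusted p under 0.05 there were 3 members, Ctsc, Ctss and Ctsz, against 6.52% of all genes. Those 3 were also the members whose groups did not overlap, 2 higher and 1 lower with cartilage fragments, where 8.73% of all genes were higher and 6.13% were lower without overlap, 14.9% in all. The median log2 fold change of the members was 0.02, and that over all genes tested was 0.02. With assembled transcripts added, 1 of 9 passed (Ctsc), against 0.366% of 10393 genes. In locus fragments 3 of 9 passed, where 2.29% of all genes did. Ctsc and Ctsz were higher (1.53% of all genes) and Ctss was lower (0.760% of all genes). On that scale 5 members did not overlap (16.5% of all genes), Ctsc and Ctsz higher (9.12%) and Ctsb, Ctsd and Ctss lower (7.33%), and the members' median was -0.06 against 0.00 over all genes.

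**Figure D3:**
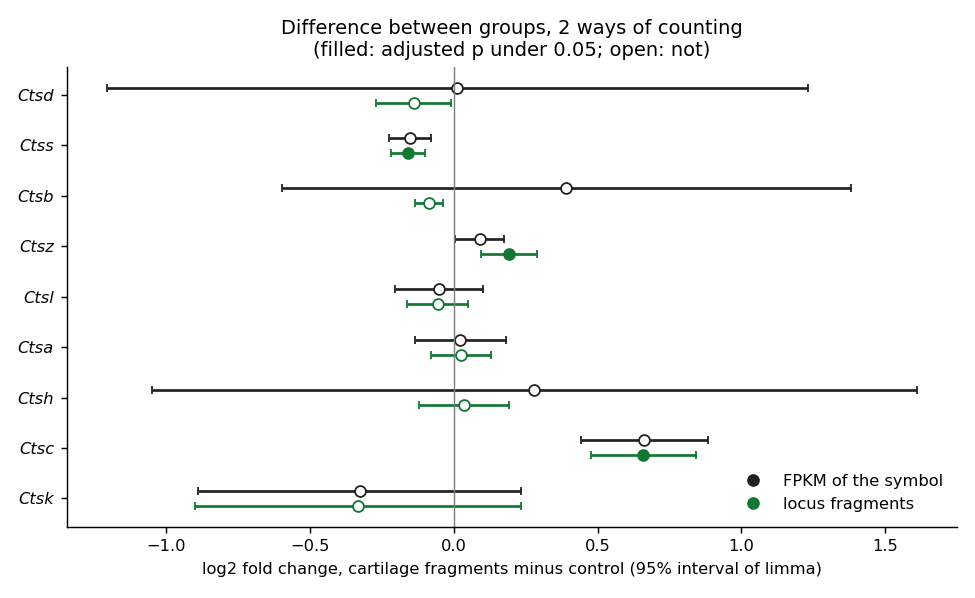
Log2 fold change of each cathepsin, stimulated minus control, with 95% intervals of limma, from the FPKM of the symbol (black) and from locus fragments (green). Filled points passed an adjusted p of 0.05: none on FPKM, and Ctsc, Ctss and Ctsz in locus fragments, while the wide black intervals of Ctsd, Ctsb and Ctsh shrink in green.

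Cathepsins together took 2.49% to 4.33% of all FPKM listed under a gene symbol. Their summed level was 15191, 21987 and 13949 FPKM in controls (mean 17042 ± 4327, SD, n = 3) and 19976, 20069.8 and 12481 FPKM in stimulated libraries (17509 ± 4355). The groups overlapped and the spread within a group was far above the difference of the means, and no test was made. The 3 libraries with an assembled Ctsd transcript had the 3 lowest sums. With assembled transcripts added, the sums were 21905, 21987 and 23186 FPKM in controls (22359 ± 717) and 21637, 21286 and 21758 FPKM in stimulated libraries (21560.1 ± 245). On that scale all stimulated libraries lay below all controls. The sums of stimulated 1 and stimulated 2 include the short Ctsz pieces, at 1458 and 1216 FPKM, so the stimulated mean and SD depend on them. As a share of all fragments of a library, which favours long transcripts, the loci of the 9 genes held 4.002%, 4.08% and 4.21% in controls and 3.75%, 3.74% and 3.93% with cartilage fragments. The highest stimulated library was just below the lowest control.

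The 7 cysteine cathepsins without Ctsd and Ctsa summed to 7940.3, 8029 and 6636 FPKM in controls and 7545, 7435 and 7599.9 FPKM in stimulated libraries. The control means and stimulated means were 7535 ± 780.2 and 7527 ± 83.8 FPKM (SD). Control 3, the library with the assembled Ctsb transcript, was the lowest. These near-equal means hold for the FPKM of the symbol alone. In locus fragments the same genes summed to 11749, 11966 and 11940 in controls and 11540, 11185 and 11380 in stimulated libraries, lower in all stimulated libraries without overlap. With assembled transcripts added, the sums were 8019.9 ± 75.3 FPKM in controls and 8486 ± 816 FPKM in stimulated libraries, and the Ctsz pieces of stimulated 1 and stimulated 2 are in the latter.

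Ctsd made up more than any other member of the pool in every library. Its share of the summed cathepsin FPKM was 45.5%, 61.8% and 49.6% in controls and 60.3%, 61.1% and 36.2% in stimulated libraries, with means of 52.3% ± 8.50 and 52.5% ± 14.2 (SD). The share was near 60% in the libraries without an assembled Ctsd transcript and below 50% in those with one. Ctss held 24.9% ± 5.30 of the pool in controls and 22.1% ± 6.48 in stimulated libraries. Ctsb held 8.20% ± 3.32 and 10.2% ± 3.07, Ctsz 6.31% ± 1.39 and 6.62% ± 2.00, and Ctsl 4.13% ± 1.15 and 3.86% ± 0.995. Ctsa, Ctsh, Ctsc and Ctsk each held under 3% in every library. The groups overlapped for the share of all 9 members, so no difference between groups went beyond the spread of these shares.

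In locus fragments the make-up of the pool was steadier. Ctsd held 58.5% ± 0.641 of the fragments in controls and 57.1% ± 1.32 in stimulated libraries, and the groups overlapped. The share of Ctsc was 0.562% ± 0.0212 in controls and 0.955% ± 0.0513 with cartilage fragments, and that of Ctsz was 2.99% ± 0.0805 and 3.69% ± 0.295, both without overlap. Ctsa and Ctsh were also higher without overlap, at 2.76% and 3.02% for Ctsa and 0.914% and 1.01% for Ctsh. Shares of one total depend on each other, and the counts of Ctsa and Ctsh themselves overlapped. For each 100 FPKM of Ctss there were 2.50, 2.35 and 2.61 FPKM of Ctsc in controls and 4.27, 4.15 and 4.70 with cartilage fragments, a ratio chosen after the values were seen.

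**Figure D4:**
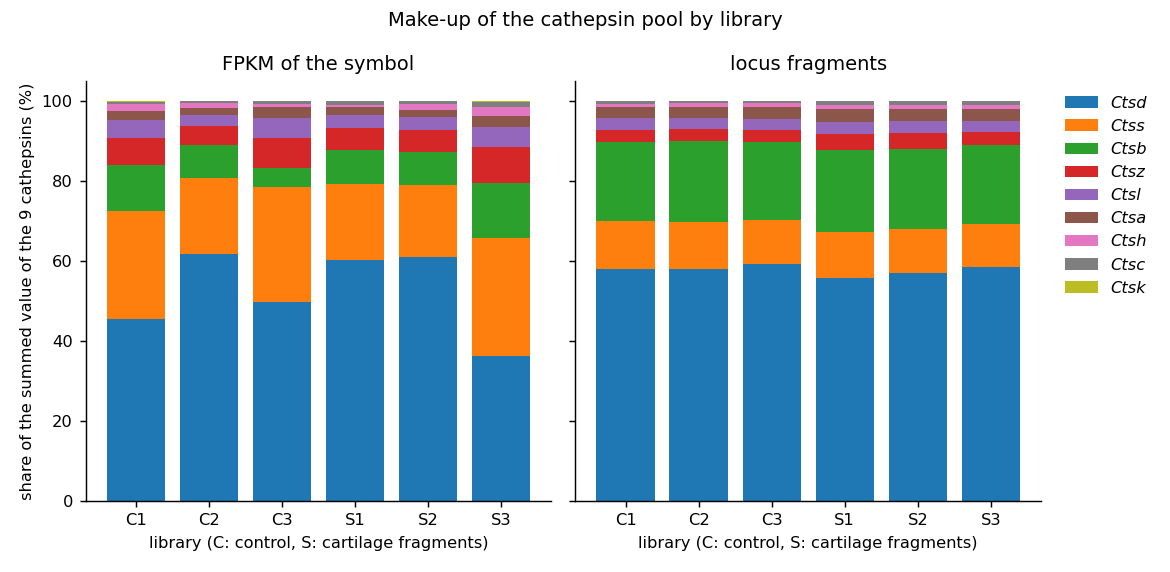
Share (%) of each cathepsin in the summed value of the 9 genes per library, from the FPKM of the symbol (left) and from locus fragments (right), for controls (C1 to C3) and stimulated libraries (S1 to S3). On the left the share of Ctsd runs from 36.2% to 61.8%, and on the right its share lies between 55.8% and 59.2% in all 6 libraries.

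The counting error limited the rare members more than the abundant ones. It was 0.742% for Ctsd and 7.57% for Ctsc in controls, and 6.16% for Ctsc in stimulated libraries. The spread of Ctsd in FPKM was 42.2% in controls and 45.9% in stimulated libraries, and in locus fragments it was 3.54% and 4.98%. For Ctsc the spread in locus fragments was 3.84% in controls, below the counting error, and 7.76% in stimulated libraries, above it.

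Of the 14 other cathepsin genes, 10 were at 0 in all libraries, Ctsg of neutrophil granules among them. Ctsf, Ctso and Ctse passed the filter of 1 FPKM and 0 of these 3 passed the test on either scale, also at an unadjusted p under 0.05. Ctsf was at 8.81, 6.80 and 10.7 FPKM in controls and 10.6, 11.1 and 11.4 FPKM with cartilage fragments, and the groups overlapped. Ctso was at 17.6 to 21.8 FPKM in controls and 16.0 to 20.7 FPKM in stimulated libraries. Ctse was at 0.679 to 2.93 FPKM over the 6 libraries, and Ctsw, of cytotoxic lymphocytes, was above 0 in stimulated 3 alone (1.41 FPKM). These other genes together with the members gave a sum of 17073 FPKM in controls, against 17042 for the members.

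Genes around the cathepsins were grouped by role into 10 lists with 110 genes tested. On the FPKM of the symbol, 0 of the 110 passed the test of limma, and 15 had an unadjusted p under 0.05, against 6.52% of all genes. In locus fragments 14 passed, 5 higher and 9 lower, which is 12.7% of those tested against 2.29% of all genes. Acp5 and Adam8 apart, these genes are in the study's list of changed genes from the same libraries, so they are not independent evidence.

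Cathepsin inhibitors held 9 tested genes and 0 passed on either scale. On each scale 1 had an unadjusted p under 0.05, against 6.52% of all genes on FPKM and 11.4% in locus fragments. Cstb, the cytosolic inhibitor stefin B, was at 1151, 1210.5 and 1137 FPKM in controls and 1353, 1426 and 1289 FPKM in stimulated libraries. All its stimulated libraries were higher, with a log2 fold change of 0.22 ± 0.05 (SE) and an adjusted p of 0.397. Cst3, the secreted cystatin C, was at 1270 to 1414 FPKM in controls and 1208 to 1349 FPKM in stimulated libraries, and these overlapped.

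Among the 8 genes of cathepsin activation and partners, 1 was higher and 1 lower in locus fragments, against 1.53% and 0.76% of all genes. Lgmn, the asparaginyl protease that cuts cathepsin precursors, was at 540, 550.3 and 589 locus fragments in controls and 452, 453 and 433 with cartilage fragments. It fell by 0.33 on the log2 scale (SE 0.06, adjusted p 0.00141), while its FPKM of 284 to 473 in controls and 348 to 365 in stimulated libraries overlapped. Sppl2a, which cleaves the remnant of the invariant chain in the membrane, was higher at 175 to 210 against 142 to 151 locus fragments (adjusted p 0.0477). Psap, the precursor of the saposins and a partner of Ctsd, was at 10274 to 10470 FPKM in controls and 9315 to 10153 FPKM in stimulated libraries, and its adjusted p was 0.691. Grn, a further partner of Ctsd, overlapped between the groups.

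Transport to the lysosome gave no call among 16 tested genes on either scale, with 1 on FPKM and 3 in locus fragments at an unadjusted p under 0.05, where 6.52% and 11.4% of all genes were under it. M6pr, the cation-dependent mannose 6-phosphate receptor, was at 171, 164 and 174 FPKM in controls and 218, 199.98 and 182 FPKM in stimulated libraries. The groups did not overlap, and the adjusted p was 0.719. Of 13 regulators of lysosome biogenesis, TFEB and its relatives among them, 0 passed on either scale, with 0 on FPKM and 3 in locus fragments at an unadjusted p under 0.05 (11.4% of all genes on the latter scale).

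Among 12 lysosomal membrane and acidification genes, Atp6v0d2, a subunit of the proton pump, was the 1 gene called in locus fragments (2.29% of all genes). It was at 284, 274 and 290.3 FPKM in controls and 223, 217 and 210.2 FPKM with cartilage fragments, with a log2 fold change of -0.39 in locus fragments (adjusted p 0.000307). Lamp1 and Cd63 overlapped between groups. Of 27 other lysosomal hydrolases, 3 passed in locus fragments, where 2.29% of all genes did. Acp2 and Acp5, both acid phosphatases, were higher, with log2 fold changes of 0.61 and 0.77 (adjusted p 5.26e-05 and 0.0498). Man2b1, an alpha-mannosidase, was lower by -0.26 (adjusted p 0.00557), and the list's median was -0.04.

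MHC class II genes, whose products depend on Ctss for removal of the invariant chain, held 8 tested genes. Of these, 4 were lower by the test in locus fragments (0.76% of all genes) and 0 passed on FPKM (limma). On FPKM 3 had an unadjusted p under 0.05, against 6.52% of all genes. The median log2 fold change was -0.61 on FPKM and -0.62 in locus fragments. Groups did not overlap for 5 of the 8, all lower, on both scales. Over all genes 6.13% on FPKM and 7.33% in locus fragments were lower without overlap. H2-DMa, H2-DMb1 and H2-DMb2, which encode chains of the H2-M peptide exchange factor, overlapped between groups, with log2 fold changes of -0.065, -0.060 and -0.29 on FPKM (adjusted p 0.964, 0.942 and 0.910). Cd74, the invariant chain itself, was at 413, 369 and 337 FPKM in controls and 206, 206 and 179 FPKM with cartilage fragments. Every stimulated library was far below the controls, and the log2 fold change was -0.92 ± 0.10 (SE), with an adjusted p of 0.0702 on FPKM and 2.54e-07 in locus fragments. H2-Aa, H2-Ab1 and H2-Eb1 also passed in locus fragments, at -0.58, -0.66 and -0.90 (adjusted p 0.00823, 0.00110 and 0.000494).

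Granule proteases that Ctsc activates were almost absent. Of 10 genes, 5 were at 0 in all libraries and 1, Mcpt8, passed the filter, at 0 to 2.14 FPKM in controls and 0 to 4.27 FPKM with cartilage fragments. Elane and Prtn3 of neutrophils were at most 1.88 FPKM in any library. Neutrophil markers as a list were not absent. Their 9 genes summed to 813 to 948 FPKM in controls and 755 to 1174 FPKM in stimulated libraries. S100a8 was at 233 to 454 FPKM and S100a9 at 329 to 502 FPKM over the libraries. Of 7 tested neutrophil markers, 0 passed on either scale. Among 13 other matrix proteases, Mmp9 and Adam17 were higher in locus fragments (log2 fold changes of 1.44 and 0.42, adjusted p 0.00488 and 0.00460) and Mmp12 and Adam8 were lower (-0.38 and -0.23, adjusted p 2.91e-05 and 0.00593). Over all genes 1.53% were called higher and 0.76% lower on that scale. Mmp14, which the study lists as higher, had log2 fold changes of -2.80 on FPKM and 1.18 in locus fragments (limma, adjusted p 0.831 and 0.322). With assembled transcripts added it passed as higher, where 0.366% of all genes passed.

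**Figure D5:**
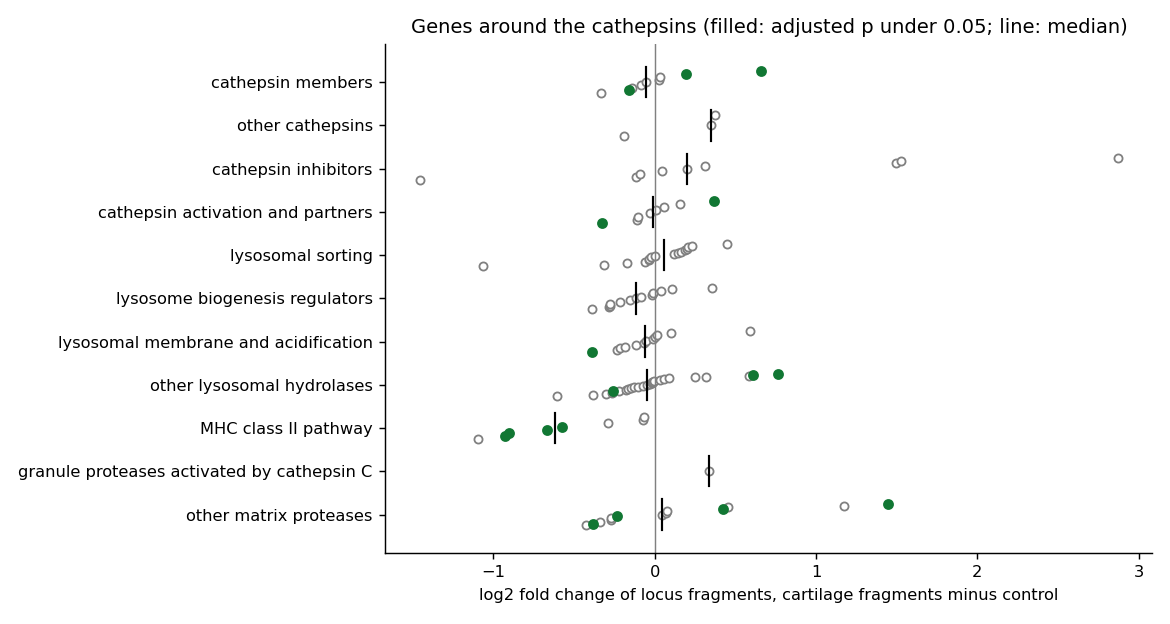
Log2 fold change of locus fragments, stimulated minus control, for each tested gene of the cathepsin family and of 10 lists around it, with a line at each list's median. Filled points passed an adjusted p of 0.05; 4 of the 8 MHC class II genes are filled and below 0, while H2-DMa, H2-DMb1 and H2-DMb2 of that list lie between -0.29 and -0.067, and most other lists have points on both sides of 0.

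Across the 6 libraries, the genes most like Ctsc in log2(FPKM + 0.1) among 1288 other genes of at least 50 FPKM were Tagln2 (Pearson r 0.998), Actg1 (0.995) and Prdx6 (0.990). Those most like Ctss were Idh1 (0.990), Id3 (0.990) and Ctnnb1 (0.988). These are descriptions over 6 libraries in 2 groups, and a gene that differs between the groups can reach such a value by that alone. Tagln2 was at 112 FPKM in controls and 171 FPKM with cartilage fragments (means), with an adjusted p of 0.117, and Idh1 was at 265 and 208 FPKM, with an adjusted p of 0.377.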

How the data were processed

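RNA-seq libraries of bone marrow-derived macrophages, 3 control and 3 stimulated, were analysed. Per the labels, reads were mapped to mm10 by the authors (TopHat, Bowtie) and quantified in Cufflinks, and the deposited values are FPKM per transcript. The deposited coverage signal was used only to estimate fragments. The study's methods name TMM normalization and removal of low FPKM, and low values were still in the files. Versions are not given in the sources used here. Annotated and assembled transcripts share a file, and assembled ones carry no symbol. FPKM were summed per symbol. Positions are 1-based. The files hold no counts, so count tests were not run.

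Genes whose mean FPKM reached 1 entered the test, on log2(FPKM + 0.1) with limma 3.58.1 in R 4.3.3 (trend, robust), two-sided, with Benjamini-Hochberg adjustment over all 10352 genes and a threshold of 0.05. Shares and sums were not tested, since an exact permutation test of 3 against 3 cannot go below a p of 0.1. Fragments were estimated from coverage, FPKM and read length, 699000 to 776000 per library, far fewer than the reads named in the methods, which was not explained, and depth statements rest on this estimate. With an effective length shortened by 205 to 215 bases, 93.3% to 94.2% of low values lay within 0.1 of a whole number. Counting errors given here cover sampling of fragments only.

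The members and lists were chosen with earlier results of these data known. Named are all members, and in each list the genes called or the most abundant 4. Locus fragments and added assembled transcripts were chosen after seeing the data. The other alternatives changed the pseudocount, filter, scaling, variance moderation, sample weights, block, transcript status and libraries. Python 3.11.15 with pandas, numpy and matplotlib was used for tables and figures.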

Additional observations from a re-analysis of the deposited data

How the results depend on the processing

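The count of cathepsins that passed was 0 in every alternative computed from the FPKM of the symbol, and using reference transcripts only is the same by construction, since assembled transcripts carry no symbol. It was 1 with assembled transcripts added, 3 in locus fragments, 4 with locus fragments and size factors (Ctsb joins) and 2 to 4 in locus fragments without each library in turn. Genes of the surrounding lists that passed were 0, then 4, 14, 13 and 9 to 13 in the same order. No pairing by replicate number is stated, and same-numbered deviations correlated at 0.028, -0.0047 and 0.0083. These correlations rest on the FPKM of the symbol, which moves with assembled transcripts, so they cannot show whether the cultures were paired. With the replicate block 0 cathepsins and 0 list genes passed, and over all genes 0 passed in place of 19. With the replicate block in locus fragments 4 cathepsins (Ctsd joins, adjusted p 6.38e-06) and 13 list genes passed. Over all genes 8 passed with a pseudocount of 0.01, 12 with a filter of 5 FPKM, 0 to 19 without a library (0 without stimulated 1, 2 without stimulated 2, 6 without stimulated 3 and 10 without control 2), 38 with assembled transcripts added and 238 in locus fragments.

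Log2 fold changes that turned sign were, on FPKM, Ctsa with equal totals (-0.012), quantiles (-0.020), status OK only (-0.91) and its line NM_008906 alone (-0.051), Ctsd with equal totals (-0.023) and size factors (-0.0091), and the Ctss line NM_001267695 alone (4.04). Without each library in turn Ctsa ranged from -0.019 to 0.069, Ctsb from -0.075 to 0.64, Ctsd from -0.23 to 0.49 and Ctsh from -0.28 to 0.58. With assembled transcripts added Ctsb was at -0.091, Ctsd at -0.14 and Ctsh at -0.019, and Ctsz went from 0.090 to 0.86 (adjusted p 0.551) and the difference in its share from 0.32 to 4.63 percentage points. In locus fragments Ctsb was at -0.086 and Ctsd at -0.14, also with the replicate block, and at -0.092 and -0.15 with size factors. Without each library in turn they ranged from -0.11 to -0.072 and from -0.18 to -0.11, and Ctsa from -0.015 to 0.072. None of these had passed on FPKM. Why the settings differ was not tested, beyond the assembled transcripts shown for Ctsd, Ctsb and Ctsh. Ctsc and Ctss had no assembled transcript added, and their estimates hardly differed between FPKM and locus fragments. The t of limma was 7.40 and 7.47 for Ctsc and -5.19 and -5.46 for Ctss. Unadjusted p went from 0.000357 to 4.89e-08 and from 0.00222 to 8.81e-06. At near-equal t, such lower p-values come with more degrees of freedom in the fit. The difference in the share of Ctsd (0.23 percentage points) moved by less than the spread between libraries on FPKM in all alternatives. The log2 ratio of the summed values (0.039 on FPKM, -0.086 to 0.27 without each library in turn) moved by less than that spread too, but it turned to -0.052 with assembled transcripts added and -0.10 in locus fragments, where the spread was smaller and the groups did not overlap. Depth limits Ctsk most, at 14 to 25 fragments per library.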
